A study of Mus musculus with 6 samples.

Results

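The genes of fatty acid activation and oxidation were examined in RNA from mouse aorta, in smooth muscle-specific Ogt knockout mice and in control mice. The set holds 35 genes out of 55487 in the deposited table, taken by exact gene symbol from a list of enzymes and carriers, and each symbol belonged to 1 identifier. Of the 35, 22 encode mitochondrial proteins, 5 encode peroxisomal proteins, 4 encode proteins found in both organelles and 4 encode acyl-CoA synthetases of cell membranes. All 35 passed the filter on low counts.

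The knockout group held 3 libraries from aortas labelled as an Ogt knockout specific to smooth muscle cells, with titles that name SM22, another name for transgelin (Tagln), a smooth muscle gene. The control group held 3 libraries whose genotype is given only as LoxP, which names floxed alleles, and whether these mice also carried Cre is not stated. Age, sex, strain, the Cre line and the number of mice in a library are not given in the labels. Each library is whole aorta, which holds endothelium, smooth muscle, adventitia and attached fat as well as the targeted cells. The p-values rest on the spread between these libraries, and whether that is a spread between single mice is not known. Ogt encodes O-GlcNAc transferase, which attaches N-acetylglucosamine to nuclear and cytoplasmic proteins. Ogt itself stood at 93.3, 73.5 and 70.9 CPM (read counts scaled to the size of each library) in the knockout libraries, against 177.4, 183.2 and 149.97 CPM in the control libraries. Its log2 fold change was -1.10 ± 0.15 (standard error), with an adjusted edgeR quasi-likelihood p of 0.0214, and the groups did not overlap.

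Total counts ran from 11845644 to 18218385 in the knockout libraries and from 3038782 to 13738958 in the control libraries. Control replicate 2 was the shallowest, and 10.2% of its counts came from mitochondrial ribosomal RNA, where the other 5 libraries had 0.491% to 0.823%. The 35 genes together took 0.177% to 0.181% of counts in the knockout libraries and 0.180% to 0.222% in the control libraries. The lowest count of any of them was 15, in control replicate 2. Some of the values that depend on this library are also given without it.

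A fatty acid is first joined to coenzyme A by an acyl-CoA synthetase. Long chains then enter mitochondria through the carnitine shuttle and are shortened by repeated rounds of dehydrogenation, hydration, a further oxidation and thiolysis, with electrons passed through the electron transfer flavoprotein to the respiratory chain. Peroxisomes run a parallel pathway for very long, branched and dicarboxylic chains, in which an acyl-CoA oxidase takes the place of the dehydrogenase and hydrogen peroxide is formed. In the vessel wall, oxidation of fatty acids is 1 of several fuel pathways, and in brown fat around the aorta it feeds heat production.

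Acadvl and Ehhadh fell in the knockout aortas, and no other gene of the set passed the test. Acadvl encodes the very long-chain acyl-CoA dehydrogenase, which opens mitochondrial oxidation of the longest chains. Ehhadh encodes the peroxisomal bifunctional enzyme, which carries out hydration and the following oxidation and is known for its part in the oxidation of dicarboxylic acids. Acadvl averaged 78.9 ± 6.25 CPM in the knockout libraries and 127.0 ± 9.82 CPM in the control libraries (SD, n = 3 each). Ehhadh averaged 7.99 ± 1.99 CPM in the knockout libraries and 17.8 ± 1.59 CPM in the control libraries (SD, n = 3 each). In whole tissue, fewer cells of a type and less RNA per cell cannot be told apart.

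With an adjusted p under 0.05 as the threshold, edgeR's quasi-likelihood test called 2 of the 35 genes lower (5.71%) and 0 higher, against 1.56% of all 16139 tested genes lower and 1.90% higher (3.45% in either direction). At an unadjusted p under 0.05, 9 of the 35 were lower (25.7%) and 2 were higher (5.71%), against 11.3% of all tested genes lower and 11.5% higher (22.7% in either direction). Knockout and control values did not overlap for 11 genes that were lower and 3 that were higher, which are 31.4% and 8.57% of the set, against 14.8% and 16.9% of all tested genes (31.8% in either direction). The log2 fold change was negative for 23 genes and positive for 12, with a median of -0.15, and over all tested genes 51.3% were negative with a median of -0.01. DESeq2 called 2 lower and 2 higher, against 4.55% and 4.68% of all tested genes (9.23% in either direction). With limma voom 2 were lower and 0 higher, against 2.33% and 2.40% (4.73% in either direction). Without control replicate 2, edgeR called 2 lower and 1 higher, against 2.54% and 2.97% (5.51% in either direction), and the median was -0.20.

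**Figure D1:**
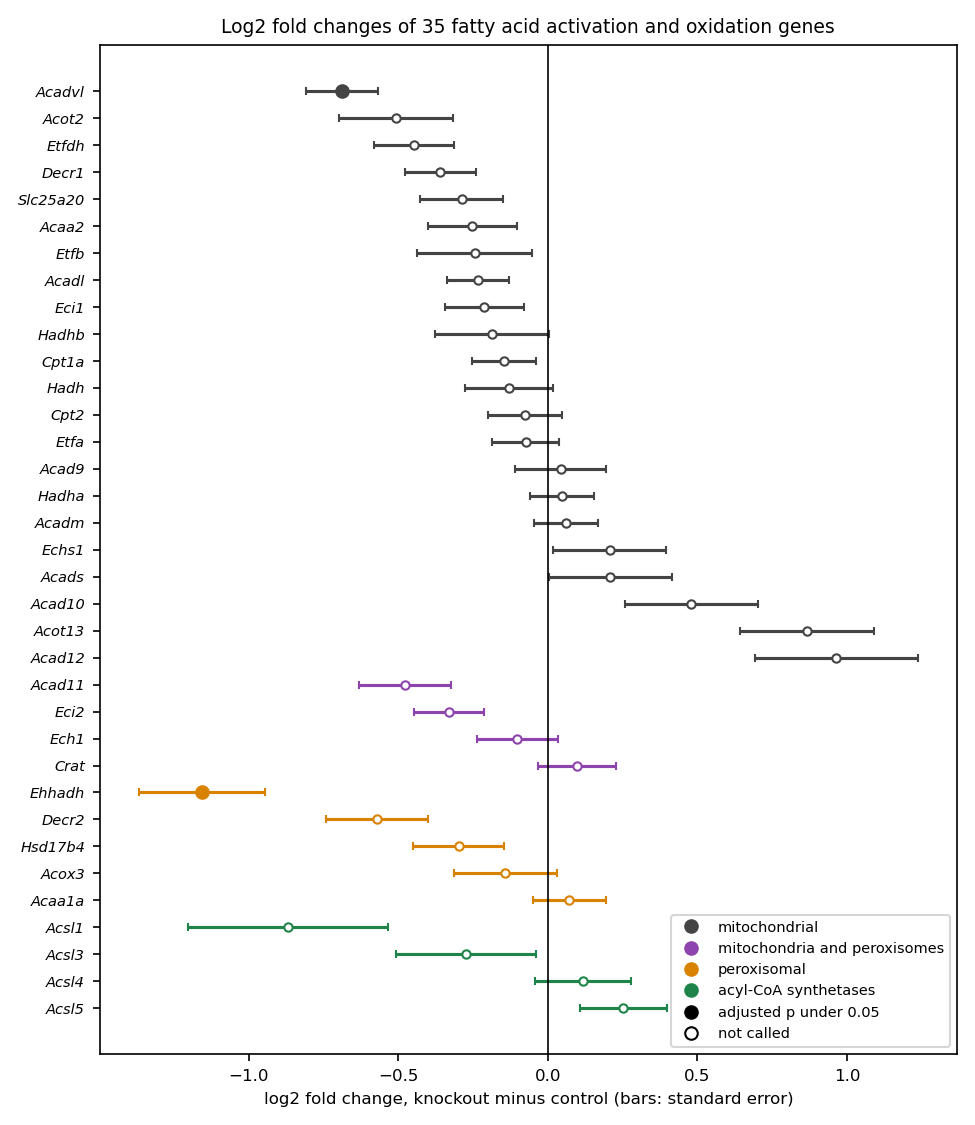
Log2 fold change of each of the 35 genes, knockout minus control, with bars for the standard error of the edgeR fit and colours for the compartment. The filled points are Acadvl at -0.69 and Ehhadh at -1.16, the open points did not pass an adjusted p of 0.05, and Acad12 at 0.96 and Acot13 at 0.87 lie farthest to the right.

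Both calls rested on all but 1 of the libraries. With a library left out, the log2 fold change ran from -0.74 to -0.62 for Acadvl and from -1.34 to -0.98 for Ehhadh, so the direction held each time. The adjusted p of edgeR's quasi-likelihood test for Acadvl was 0.0238 without control replicate 2. Leaving out control replicate 1 gave 0.118 and control replicate 3 gave 0.0635, while the 3 knockout replicates, each left out in turn, gave 0.186, 0.160 and 0.0846. For Ehhadh it was 0.0354 without control replicate 2. Leaving out control replicate 1 gave 0.128 and control replicate 3 gave 0.0722, while the knockout replicates in turn gave 0.158, 0.123 and 0.0984. Either gene thus lost its call when any library other than control replicate 2 was left out, in fits that called 7 to 280 genes in all.

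**Figure D2:**
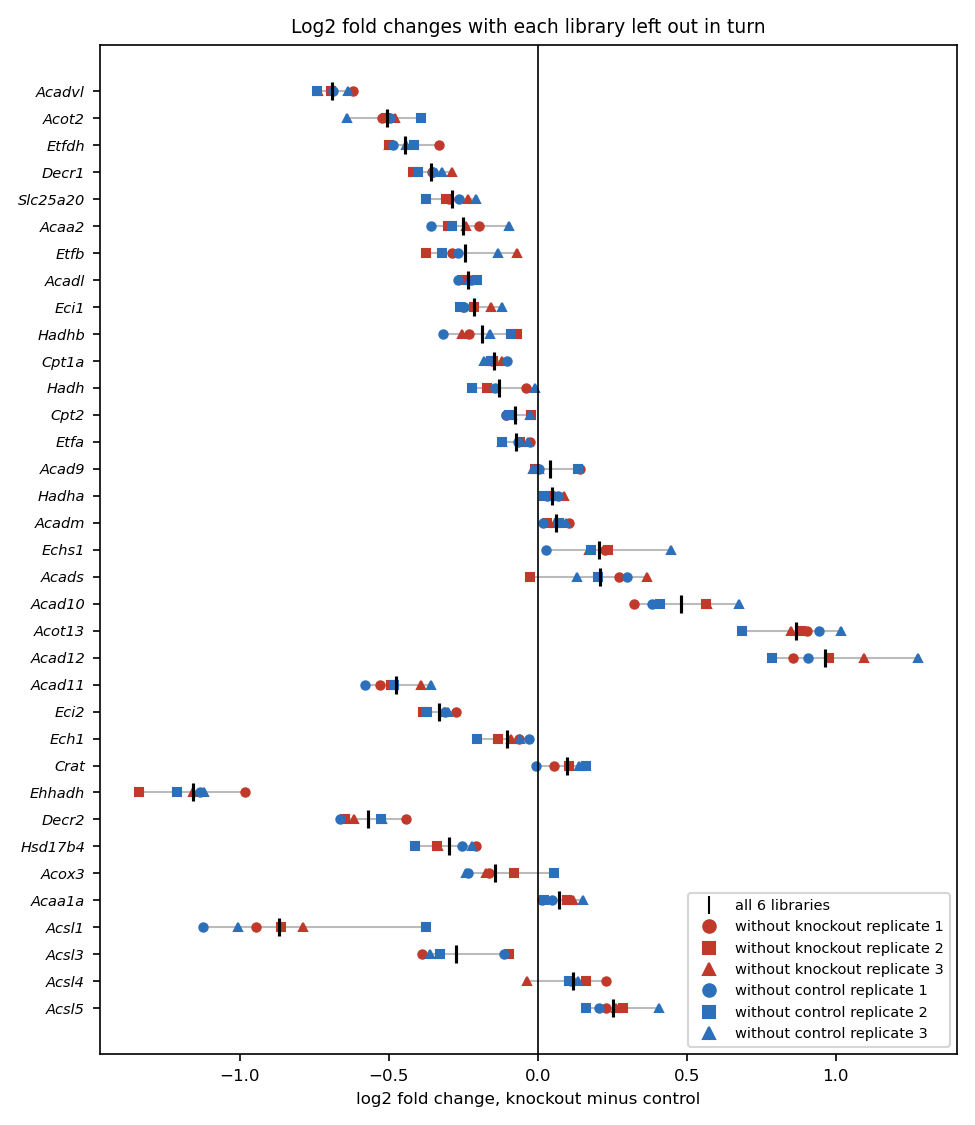
Log2 fold change, knockout minus control, of each of the 35 genes with all 6 libraries (black bar) and with each library left out in turn (symbols). Acadvl stays between -0.74 and -0.62 and Ehhadh between -1.34 and -0.98, while Acsl1 moves to -0.38 without control replicate 2.

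The first step of mitochondrial oxidation is shared by a family of acyl-CoA dehydrogenases that differ in the chain length they accept, and their transcripts did not change together. Acadvl (ENSMUSG00000018574, chr11:70010183-70015411 in GRCm38 coordinates) stood at 72.1, 79.9 and 84.5 CPM in the knockout libraries, against 128.9, 116.4 and 135.8 CPM in the control libraries. The highest knockout library lay well below the lowest control library. The log2 fold change was -0.69 ± 0.12 (standard error), with an adjusted edgeR quasi-likelihood p of 0.0337. Expression in the knockout libraries was 62.1% of the control mean. DESeq2 gave an adjusted p of 6.86e-05 and limma voom 0.0281. Dvl2, a Wnt pathway gene on the opposite strand, overlaps Acadvl over 2119 bases and had 23.6% as many counts, and the strand setting of the counting is not given in the sources used here. Dvl2 stood at 21.4, 23.9 and 21.4 CPM in the knockout libraries, against 25.9, 21.1 and 26.0 CPM in the control libraries, so those groups overlapped (log2 fold change -0.14, adjusted edgeR quasi-likelihood p of 0.580). Dvl2 was singled out for its position, outside the rule that chose the named genes.

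The promoters of the 2 genes that fell are shown because motifs of regulators of this pathway can be looked for in them. Both are the 250 bases before the start in RefSeq (GRCm38.p6, minus strand), at chr11:70015429-70015678 for Acadvl and chr16:21787835-21788084 for Ehhadh, with motif matches on either strand in capitals.
Acadvl: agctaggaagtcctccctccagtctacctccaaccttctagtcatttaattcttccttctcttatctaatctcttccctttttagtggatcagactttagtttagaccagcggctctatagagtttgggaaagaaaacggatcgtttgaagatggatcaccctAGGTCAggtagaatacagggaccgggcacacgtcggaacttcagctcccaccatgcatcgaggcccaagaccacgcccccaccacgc
Ehhadh: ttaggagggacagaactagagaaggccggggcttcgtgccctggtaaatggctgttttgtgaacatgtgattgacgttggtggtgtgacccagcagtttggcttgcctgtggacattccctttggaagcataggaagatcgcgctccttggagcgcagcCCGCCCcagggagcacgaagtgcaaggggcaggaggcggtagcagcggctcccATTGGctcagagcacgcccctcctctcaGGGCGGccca
The Acadvl stretch held 1 match to AGGTCA, the core of nuclear receptor sites, and the Ehhadh stretch held 2 GC boxes (GGGCGG) and 1 CCAAT box.

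Promoter windows of 300 bases (250 before and 50 after the start) were given for 29 of the 35 genes, in 30 windows. AGGTCA on either strand was in 4 of the 30 windows (13.3%), those of Acadm, Acadvl, Cpt1a and Echs1, against 12.4% of the windows of tested genes and 16.3% of all windows. The direct repeat AGGTCANAGGTCA and the extended element TCAAGGTCA, which both contain the AGGTCA core, were in 0 of the 30 windows, against 0.0359% and 0.266% of the windows of tested genes. The E-box CACGTG was in 0 of the 30, against 9.68% of tested genes' windows. GC boxes were in 22 windows (73.3%), against 60.6% of tested genes' windows and 35.7% of all windows, and CCAAT was in 13 (43.3%), against 37.3% of tested genes' windows. The palindrome bound by NRF1, a regulator of mitochondrial genes (GCGCA followed by its reverse complement), was in 3 of the 30 windows, those of Acad10, Acad12 and Etfdh, against 1.89% of tested genes' windows. Acad10 and Acad12 lie 2087 bases apart.

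The dehydrogenases for shorter chains did not pass the test. Acadl, for long chains, stood at 92.7, 95.6 and 89.6 CPM in the knockout libraries, against 105.1, 113.1 and 109.0 CPM in the control libraries. These groups did not overlap, but the difference was small (log2 fold change -0.23 ± 0.10, adjusted edgeR quasi-likelihood p of 0.230). Acadm, for medium chains, had a log2 fold change of 0.06, Acads, for short chains, one of 0.21, and Acad9, which also serves in complex I assembly, one of 0.04, and for each of these 3 the groups overlapped. Per kilobase, the ratio of Acadvl to Acadm was 0.852 ± 0.0472 in the knockout libraries and 1.43 ± 0.115 in the control libraries (SD, n = 3 each). The ratio of Acadvl to Acadl was 0.358 ± 0.0352 in the knockout libraries and 0.490 ± 0.0502 in the control libraries (SD, n = 3 each). Neither ratio overlapped between groups, but both contain the Acadvl values given above and are not separate evidence.

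The less studied members of the family lay to both sides. Acad12 stood at 21.6, 18.6 and 15.3 CPM in the knockout libraries, against 8.87, 5.56 and 12.6 CPM in the control libraries. The knockout libraries were the higher ones without overlap, with a log2 fold change of 0.96 ± 0.27 and an adjusted edgeR quasi-likelihood p of 0.0957, while DESeq2 gave 0.0228. Its neighbour Acad10 stood at 14.3, 10.4 and 10.3 CPM in the knockout libraries, against 7.42, 7.04 and 10.1 CPM in the control libraries (log2 fold change 0.48 ± 0.22, adjusted edgeR quasi-likelihood p of 0.249). Transcripts of Acad10 and Acad12 are 95.3% identical over 1614 bases, so reads can be shared between them. Acad11, found in both organelles and known to act on hydroxylated acids, stood at 22.4, 21.2 and 18.3 CPM in the knockout libraries, against 25.1, 28.2 and 32.8 CPM in the control libraries. The groups were apart, with a log2 fold change of -0.48 ± 0.15 and an adjusted edgeR quasi-likelihood p of 0.128.

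**Figure D3:**
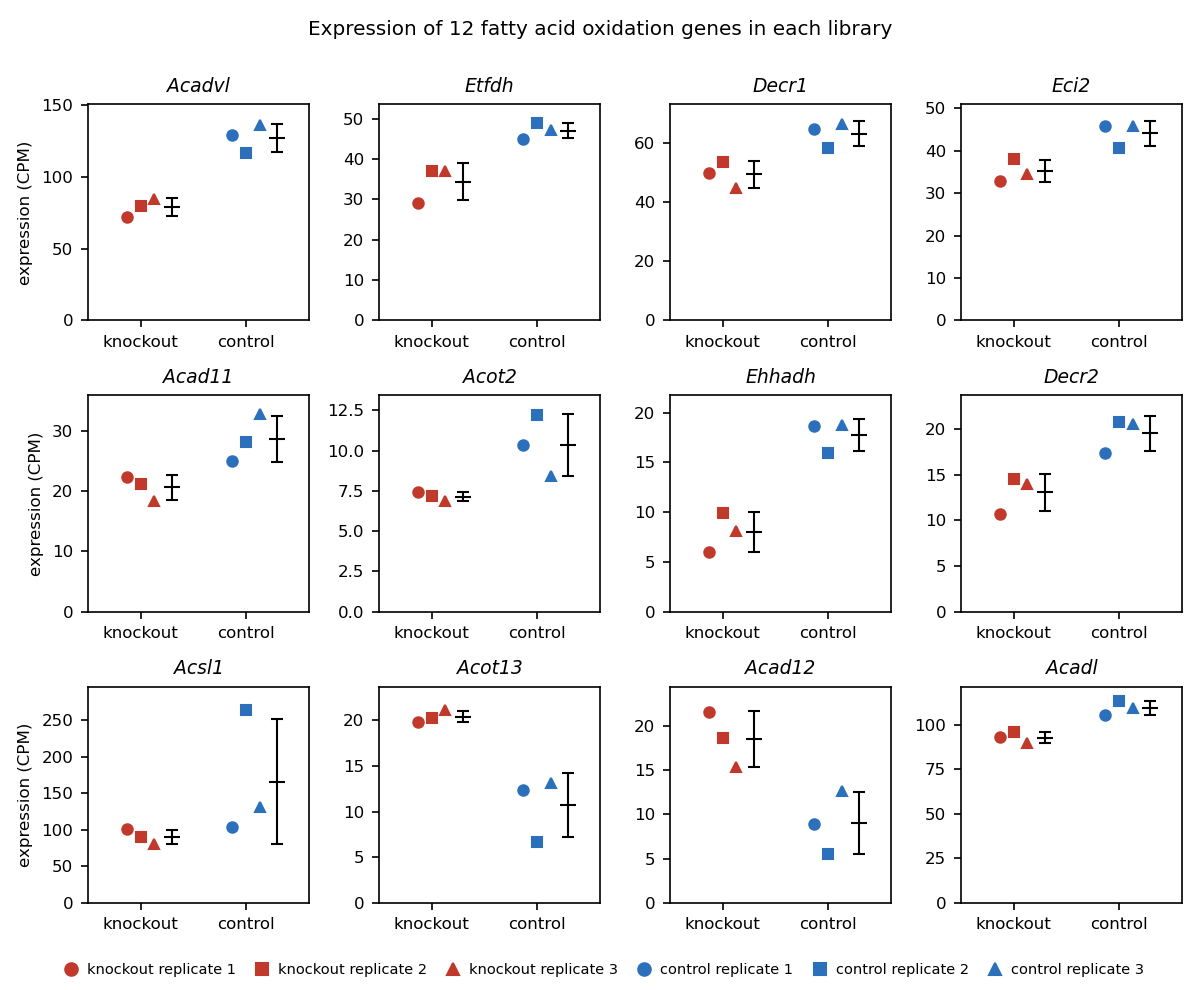
Expression of 12 of the genes in CPM, from 0, with a point for each of the 3 knockout libraries (red) and the 3 control libraries (blue) and a bar for the mean ± SD. Acadvl and Ehhadh lie lower in all 3 knockout libraries, Acot13 and Acad12 lie higher, and control replicate 2 stands alone at 263.6 CPM for Acsl1.

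Activation of long-chain acids is the work of the Acsl enzymes, and none of the 4 passed the test. Acsl1 stood at 100.6, 89.5 and 80.4 CPM in the knockout libraries, against 103.5, 263.6 and 131.1 CPM in the control libraries. The groups did not overlap, but control replicate 1 lay within a few CPM of knockout replicate 1, and control replicate 2 was far above all other libraries. The log2 fold change was -0.87 ± 0.34 (adjusted edgeR quasi-likelihood p of 0.185) with all libraries and -0.38 (adjusted p of 0.165) without control replicate 2. Acsl3, which serves lipid droplets and the endoplasmic reticulum, was the least abundant synthetase per kilobase, at 8.93, 5.71 and 8.23 CPM in the knockout libraries and 10.9, 8.16 and 8.21 CPM in the control libraries, with overlap. Acsl4, known for its preference for arachidonic acid, had a log2 fold change of 0.12 and Acsl5, of mitochondria and endoplasmic reticulum, one of 0.25. Of the summed length-scaled level of the 4 synthetases, Acsl1 made up 32.7%, 31.6% and 26.9% in the knockout libraries, against 36.2%, 61.8% and 39.1% in the control libraries. Acsl5 made up 44.6%, 44.4% and 43.3% in the knockout libraries, against 36.4%, 21.7% and 38.9% in the control libraries. It had the largest share of the 4 in all 3 knockout libraries and, narrowly, in control replicate 1. These shares depend on the gene lengths used, 14149 bases for Acsl1 and 5621 for Acsl5. Zdhhc6, on the opposite strand, overlaps Acsl5 over 26430 bases and had 42.8% as many counts. Utp14b, on the same strand, overlaps Acsl3 over 13475 bases and had 41.9% as many.

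The carnitine shuttle showed no call among its 4 genes. Cpt1a, the malonyl-CoA-sensitive entry enzyme on the outer membrane, averaged 146.3 ± 3.99 CPM in the knockout libraries and 162.0 ± 9.75 CPM in the control libraries (SD, n = 3 each). Its groups did not overlap, but the log2 fold change was only -0.15 ± 0.11 (adjusted edgeR quasi-likelihood p of 0.458). Cpt2, which restores the acyl-CoA inside, had a log2 fold change of -0.08, and Slc25a20, the carrier that exchanges acylcarnitine for carnitine, one of -0.29. Crat, which acts on acetyl and other short groups, had a log2 fold change of 0.10.

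Electrons from the dehydrogenases pass to Etfa and Etfb, the subunits of the electron transfer flavoprotein, and from there to Etfdh, which hands them to ubiquinone. Etfdh stood at 29.2, 37.1 and 37.0 CPM in the knockout libraries, against 45.0, 48.9 and 47.3 CPM in the control libraries. The groups were apart, with a log2 fold change of -0.45 ± 0.13 and an adjusted edgeR quasi-likelihood p of 0.107. Etfa and Etfb had log2 fold changes of -0.07 and -0.24 with overlapping groups.

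The 5 mitochondrial genes from hydration to thiolysis all had overlapping groups and log2 fold changes between -0.25 and 0.21. Hadha and Hadhb encode the 2 subunits of the trifunctional protein and are transcribed away from each other, with 85 bases between them. That gap is shown because it is the region both starts share (RefSeq, GRCm38.p6, plus strand, chr5:30155163-30155247, with GC boxes in capitals).
Hadha-Hadhb: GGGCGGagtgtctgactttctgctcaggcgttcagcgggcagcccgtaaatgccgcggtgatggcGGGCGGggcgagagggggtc
Hadha had a log2 fold change of 0.05 and Hadhb one of -0.19. Although the proteins form 1 complex, the length-scaled level of Hadha was 9.53 ± 1.68 times that of Hadhb in the knockout libraries and 8.02 ± 1.64 times in the control libraries (SD, n = 3 each). A processed pseudogene, Hadhb-ps, matches Hadhb transcripts at 99.8% over 1428 bases and had 4757 counts over the 6 libraries against 920 for Hadhb. The ratio of Hadhb-ps to Hadhb in CPM was 5.04 ± 0.767 in the knockout libraries and 5.11 ± 0.784 in the control libraries (SD, n = 3 each), so the level of Hadhb is uncertain in every library. Hadhb-ps was chosen after its values were seen.

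Unsaturated chains need auxiliary isomerases and reductases, and all 4 of these genes had negative log2 fold changes without a call. Decr1, the mitochondrial dienoyl-CoA reductase, stood at 49.9, 53.6 and 44.8 CPM in the knockout libraries, against 64.8, 58.6 and 66.5 CPM in the control libraries. Eci2, an enoyl-CoA isomerase of both organelles, stood at 32.9, 38.2 and 34.6 CPM in the knockout libraries, against 45.8, 40.8 and 45.9 CPM in the control libraries. In both genes the groups were apart, with log2 fold changes of -0.36 ± 0.12 for Decr1 and -0.33 ± 0.12 for Eci2 and adjusted edgeR quasi-likelihood p of 0.133 and 0.157. Ech1, a dienoyl-CoA isomerase and the most abundant of the genes of both organelles, stood at 80.5, 87.9 and 82.7 CPM in the knockout libraries, against 99.1, 74.5 and 94.8 CPM in the control libraries. Its groups overlapped through control replicate 2 (log2 fold change -0.10), as did those of Eci1 (log2 fold change -0.21).

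The 2 mitochondrial thioesterases, which release free acids from coenzyme A, lay on opposite sides. Acot13 stood at 19.8, 20.3 and 21.1 CPM in the knockout libraries, against 12.3, 6.67 and 13.2 CPM in the control libraries. All knockout libraries were higher than all control libraries, with a log2 fold change of 0.87 ± 0.22. The adjusted p was 0.0784 in the quasi-likelihood test of edgeR, 0.0124 in DESeq2 and 0.0563 in limma voom. Without control replicate 2, the lowest library, the log2 fold change was 0.69 with an adjusted edgeR quasi-likelihood p of 0.0342. Acot2 stood at 7.40, 7.18 and 6.87 CPM in the knockout libraries, against 10.4, 12.2 and 8.43 CPM in the control libraries, with a log2 fold change of -0.51 ± 0.19 (adjusted edgeR quasi-likelihood p of 0.171). Acot2 transcripts are 95.1% identical to those of Acot1 over 1274 bases.

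In peroxisomes, 4 of the 5 genes had negative log2 fold changes, and Ehhadh had the most negative of all 35. Ehhadh (ENSMUSG00000022853, chr16:21761287-21787807 in GRCm38 coordinates) stood at 5.96, 9.94 and 8.07 CPM in the knockout libraries, against 18.6, 15.9 and 18.8 CPM in the control libraries. These rest on 70, 169 and 148 counts in the knockout libraries and 271, 43 and 258 counts in the control libraries. No knockout library reached the lowest control library, and expression was 44.9% of the control mean. The log2 fold change was -1.16 ± 0.21 (standard error), with an adjusted edgeR quasi-likelihood p of 0.0377, 0.000342 in DESeq2 and 0.0285 in limma voom. No near-identical transcript of another gene was found for Ehhadh or Acadvl, at 95% identity over 300 bases.

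Hsd17b4 encodes the other peroxisomal bifunctional enzyme, for very long and branched chains, and was the most abundant peroxisomal gene per kilobase. It stood at 49.1, 58.8 and 58.5 CPM in the knockout libraries, against 73.0, 55.2 and 75.2 CPM in the control libraries. The groups overlapped through control replicate 2 (log2 fold change -0.30 ± 0.15, adjusted edgeR quasi-likelihood p of 0.288). Without that library the log2 fold change was -0.41, with an adjusted edgeR quasi-likelihood p of 0.0787. A pseudogene on the same strand, Cd63-ps, lies within Hsd17b4 and had 128.4% as many counts. The length-scaled ratio of Ehhadh to Hsd17b4 was 0.188 ± 0.0319 in the knockout libraries and 0.348 ± 0.0279 in the control libraries (SD, n = 3 each), without overlap. This ratio contains the Ehhadh values given above and is not separate evidence. Decr2, the peroxisomal dienoyl-CoA reductase and the least abundant peroxisomal gene per kilobase, stood at 10.7, 14.5 and 14.0 CPM in the knockout libraries, against 17.3, 20.8 and 20.5 CPM in the control libraries. Its groups were apart, with a log2 fold change of -0.57 ± 0.17 and an adjusted edgeR quasi-likelihood p of 0.108. Acox3, an oxidase of branched chains, had a log2 fold change of -0.14, which was 0.05 without control replicate 2, and Acaa1a, a thiolase, had one of 0.07.

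Summed per kilobase, the 22 mitochondrial genes reached 282.5, 301.2 and 281.6 CPM per kilobase in the knockout libraries, against 308.8, 293.8 and 333.0 in the control libraries. The groups overlapped through control replicate 2 alone, the shallowest library, and the knockout mean was 92.5% of the control mean. The 5 peroxisomal genes summed to 33.5, 35.9 and 35.2 CPM per kilobase in the knockout libraries, against 42.5, 38.3 and 45.0 in the control libraries. These did not overlap, as was so for 14.8% of all tested genes taken singly and lower, and the knockout mean was 83.1% of the control mean. Ehhadh supplied 2.68 of the mean of 34.9 in the knockout libraries and 5.96 of the mean of 42.0 in the control libraries. The peroxisomal sum thus contains the Ehhadh values given above, as the mitochondrial sum contains those of Acadvl, and neither is separate evidence. The peroxisomal sum was 11.9%, 11.9% and 12.5% of the mitochondrial sum in the knockout libraries, against 13.8%, 13.03% and 13.5% in the control libraries. A difference between compartments was not tested. By gene, 1 of 22 mitochondrial, 1 of 5 peroxisomal, 0 of 4 dual and 0 of 4 synthetase genes were called lower, against 1.56% of all tested genes. Their median log2 fold changes were -0.14, -0.30, -0.22 and -0.08.

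**Figure D4:**
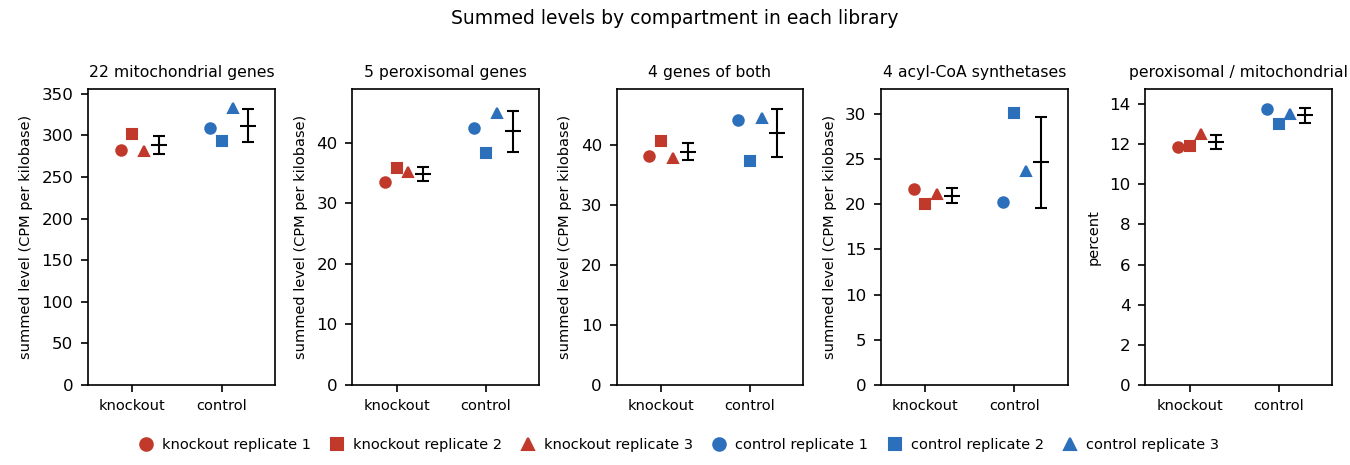
Summed level of the genes of each compartment in CPM per kilobase, and the peroxisomal sum as a percent of the mitochondrial sum, with a point for each library and a bar for the mean ± SD of 3 knockout (red) and 3 control (blue) libraries. The peroxisomal sums, which include Ehhadh, lie between 33.5 and 35.9 in the knockout libraries and between 38.3 and 45.0 in the control libraries. The mitochondrial sums overlap through control replicate 2 alone.

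Levels per kilobase spanned a 52.1-fold range over the set in the control libraries. Acadl was the most abundant, at 45.4 ± 1.47 CPM per kilobase in the knockout libraries and 53.5 ± 1.96 in the control libraries (SD, n = 3 each), followed by Etfa, Acaa2 (the mitochondrial thiolase), Ech1 and Acadvl. Acad10, the lowest gene in the control libraries, stood at 1.46 ± 0.287 CPM per kilobase in the knockout libraries and 1.03 ± 0.209 in the control libraries (SD, n = 3 each). In the knockout libraries Acsl3, at 1.18 CPM per kilobase, and Hadhb, at 1.299, had lower means. Of the 10 highest genes, 8 were mitochondrial. The order was loose, since 29 of the 34 pairs of neighbours in the control order had overlapping control ranges. Acadvl was 1 of the 5 genes set apart from the next in the order. In the control libraries it stood at 26.2 ± 2.02 CPM per kilobase, and in the knockout libraries at 16.2 ± 1.29, below Acadm at 19.1 ± 0.920 (SD, n = 3 each). Lengths are those implied by the deposited counts and FPKM values, and they cannot all be transcript lengths. For Echs1 the implied length was 11129 bases, longer than its whole span at chr7:140105710-140116476 (GRCm38). Orders, shares and ratios per kilobase between genes depend on these lengths. In addition, 7 of the 35 genes overlap a gene with at least 10% as many counts, so levels between genes are uncertain.

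**Figure D5:**
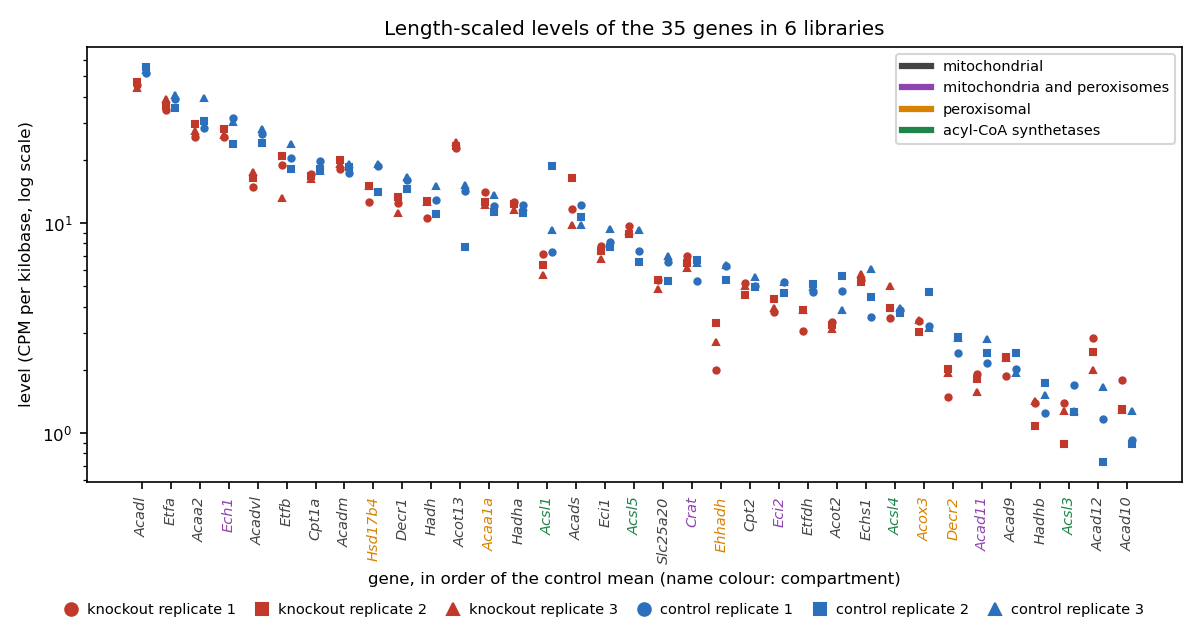
Level of each of the 35 genes in CPM per kilobase on a log axis, in the order of the control mean, with a symbol for each of 3 knockout (red) and 3 control (blue) libraries. Acadl tops the order at 53.5 and Acad10 ends it at 1.03 in the control libraries, and Acadvl, Ehhadh, Acot13 and Acad12 show the colours apart.

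Genes outside the set that work in the same pathways were counted list by list. The shares of all tested genes are the background for every list below. In edgeR 1.56% were called lower and 1.90% higher, in DESeq2 4.55% and 4.68%, and in limma voom 2.33% and 2.40%. At an unadjusted p under 0.05, 11.3% were lower and 11.5% higher (22.7% in either direction). Without control replicate 2, edgeR called 2.54% lower and 2.97% higher. Of 18 tested enzymes that handle other mitochondrial acyl-CoA esters, 1 was called lower (5.56%) and 0 higher. At an unadjusted p under 0.05, 10 were lower (55.6%, against 11.3% of all tested genes), and the median log2 fold change was -0.32. Mmut, the methylmalonyl-CoA mutase that feeds odd-chain products into the citrate cycle, fell to 27.8, 32.3 and 34.3 CPM in the knockout libraries, against 54.2, 49.3 and 55.7 CPM in the control libraries (log2 fold change -0.76, adjusted edgeR quasi-likelihood p of 0.0321). Pcca, a subunit of the propionyl-CoA carboxylase a step before it, had a log2 fold change of -0.75 (adjusted p of 0.0581), and Ivd, of leucine breakdown, one of -0.62 (adjusted p of 0.100). DESeq2 called 3 of the 18 lower and limma voom 1, and without control replicate 2 edgeR called 4 lower.

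Among 14 tested other enzymes of peroxisomal oxidation, 1 was called lower (7.14%, against 1.56% of all tested genes) and 0 higher. DESeq2, limma voom and edgeR without control replicate 2 each called 2 lower. Phyh, which starts the alpha-oxidation of phytanic acid, fell to 21.1, 21.998 and 24.4 CPM in the knockout libraries, against 32.6, 37.8 and 38.1 CPM in the control libraries (log2 fold change -0.68, adjusted edgeR quasi-likelihood p of 0.0416). Acot6 and Pecr, a thioesterase and an enoyl-CoA reductase, had log2 fold changes of -1.15 and -0.82 (adjusted p of 0.0688 and 0.147). Of 16 peroxins, which build and fill peroxisomes, 1 was called lower (6.25%, against 1.56% of all tested genes) and 0 higher. The counts were the same in DESeq2 and limma voom. Pex7, the receptor that imports Phyh and the thiolase, fell to 6.98, 7.76 and 6.71 CPM in the knockout libraries, against 12.4, 14.1 and 11.6 CPM in the control libraries (log2 fold change -0.81, adjusted edgeR quasi-likelihood p of 0.0460). Pex14 and Pex3 had log2 fold changes of 0.34 and -0.46 (adjusted p of 0.150 and 0.195).

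Of 12 tested other acyl-CoA synthetases and fatty acid transport proteins, 0 were called lower and 1 higher (8.33%, against 1.90% of all tested genes). The counts were the same with limma voom, while DESeq2 called 2 lower and 2 higher. Slc27a3 rose to 17.3, 17.7 and 13.5 CPM in the knockout libraries, against 7.35, 7.04 and 9.16 CPM in the control libraries (log2 fold change 1.02, adjusted edgeR quasi-likelihood p of 0.0389). Slc27a2 and Acss1 had log2 fold changes of -1.91 and 0.68 (adjusted p of 0.0660 and 0.0882). No gene was called among 11 carriers, 4 ketone body enzymes, 11 genes of uptake and lipolysis, 16 tested PPAR, ERR and PGC-1 regulators, 12 genes of malonyl-CoA and AMPK control or 10 tested other PPAR targets. In these lists, genes at an unadjusted p under 0.05 numbered 3, 2, 0, 2, 3 and 3, and DESeq2 called 1, 2, 0, 0, 0 and 1 and limma voom 0, 1, 0, 0, 0 and 1.

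In the lists without a call, the smallest p fell to genes on both sides. Among carriers, Slc25a42, which brings coenzyme A into mitochondria, and Abcd3, a peroxisomal fatty acid importer, had log2 fold changes of -0.68 and -0.36 (adjusted p of 0.0801 and 0.119). Among regulators, Rxrb, the partner receptor of PPARs, had a log2 fold change of 0.44 and Sirt3, the mitochondrial deacetylase, one of -0.46 (adjusted p of 0.0836 and 0.106). Ppara, which was chosen after its values were seen, was low, at 2.89, 3.12 and 3.93 CPM in the knockout libraries and 3.92, 7.04 and 3.998 CPM in the control libraries. The AMPK subunit genes Prkag1 and Prkab1 had log2 fold changes of 0.41 and 0.39 (adjusted p of 0.123 and 0.141), and the lipolysis genes Mgll and Plin2 had 0.90 and 0.29 (adjusted p of 0.261 and 0.343). Cpt1b, the muscle and brown fat form of the entry enzyme, had a log2 fold change of -0.73 (adjusted p of 0.139).

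In a list of 16 general mitochondrial genes 0 were called by edgeR's quasi-likelihood test, with 1 lower and 1 higher at an unadjusted p under 0.05, 1 lower in DESeq2, 0 in limma voom, and a median log2 fold change of 0.02. Cs, the citrate synthase, had a log2 fold change of -0.40 and Tomm20, an import receptor, one of 0.36 (adjusted p of 0.106 and 0.110). Smooth muscle markers, the tissue check, summed to 27499 to 33993 CPM in the knockout libraries and 31850 to 39758 CPM in the control libraries. Of the 10, Tagln alone was called, at 2343, 2367 and 2869 CPM in the knockout libraries, against 6065, 4249 and 6345 CPM in the control libraries.

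Brown adipocyte markers were also lower in the knockout libraries, and brown adipocytes oxidise fatty acids at a high rate. Ucp1, the uncoupling protein that defines these cells, stood at 8.34, 6.71 and 6.05 CPM in the knockout libraries, against 36.6, 38.9 and 39.5 CPM in the control libraries, and no marker of the list was at 0 in all libraries. Of 12 markers, 11 were tested, and all 11 had negative log2 fold changes, against 51.3% of all tested genes. Of these 11, 5 were called lower (Ucp1, Cox7a1, Cox8b, Pank1 and Kcnk3), which is 45.5%, against 1.56% of all tested genes. Their summed level was 194.6 to 250.1 CPM in the knockout libraries and 342.2 to 492.4 CPM in the control libraries, highest in control replicate 2, which also had the highest Acsl1. Among the markers Prdm16 was also highest in that library, at 138.4, 94.2 and 93.8 CPM in the knockout libraries and 177.5, 245.5 and 138.0 CPM in the control libraries, while Ucp1 was level across the control libraries. Prdm16, which was not called, thus made up a large part of the sum in every library, and Ucp1 a small part. White adipocyte markers summed to 988.2 to 1348 CPM in the knockout libraries and 1057 to 1541 CPM in the control libraries, and 0 of 10 were called (1 lower and 1 higher at an unadjusted p under 0.05, 0 in DESeq2). Cardiac markers summed to 37.5 to 49.9 CPM in the knockout libraries and 18.9 to 40.0 CPM in the control libraries, with Myl3 at 0 throughout and Actc1 called higher, and skeletal muscle markers summed to 61.7 to 82.4 CPM in the knockout libraries and 63.8 to 89.5 CPM in the control libraries, with Ckm called higher and Casq1 lower. No marker was called among 10 endothelial, 10 macrophage and 8 fibroblast genes, with 0, 0 and 1 at an unadjusted p under 0.05 and 0 in DESeq2. The part of these cell types in the values of Acadvl, Ehhadh and the other genes was not tested.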

How the data were processed

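RNA from whole aorta was measured by RNA-seq in 3 knockout and 3 control libraries, grouped by the genotype labels. Per the submitters' processing notes, CASAVA 1.8, HISAT2, SAMtools 1.3.1 and edgeR were used. Which program counted the reads, with what annotation and strand setting, is not given in the sources used here. The authors deposited a read count and an FPKM value per gene and library, per the file headers. FPKM served only to derive gene lengths. The notes name GRCm39, but 99.4% of 55141 shared identifiers, and all 35 genes here, have the GRCm38 positions of GENCODE M21.

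Counts were fitted as deposited in R 4.3.3 with edgeR 4.0.16 (filterByExpr, 16139 genes tested, TMM, robust glmQLFit and glmQLFTest), with Benjamini-Hochberg adjustment over all tested genes and a threshold of 0.05. Standard errors are the size of the change over the root of the F statistic. CPM uses TMM-scaled library totals, and CPM per kilobase divides it by gene length. The 13 alternatives include DESeq2 1.42.0, limma 3.58.1 (voom) and leaving out each library. The edgeR fit was tested on simulated counts with set changes, and this did not cover DESeq2, limma voom, the sums, the gene lengths or the motif counts. With 3 against 3 libraries an exact permutation test of 1 gene cannot go below 0.1, so none is given. Genes and the 19 further lists (228 of 229 entries found) were chosen with earlier results of these data known. Values of every library are given for genes past the threshold in any of the 3 tools, genes without overlap at an unadjusted p under 0.05, and the highest and lowest of each compartment, and from the other lists for called genes, with up to 2 more by p. Replicates 1 to 3 of the groups were not paired in the main fit. Some genes of the further lists are not reported here.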

Additional observations from a re-analysis of the deposited data

How the results depend on the processing

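The median log2 fold change of the 35 genes stayed between -0.20 and -0.10 under all 13 alternatives. The number of genes called in the whole table was 557, against 1490 with DESeq2 and 7 to 911 with a library left out. The number of the 35 called lower was 2, against 1 without a filter on low counts, where Acadvl had an adjusted edgeR p of 0.0581, and 0 to 2 with a library left out. The number called higher was 0, against 2 with DESeq2 and 0 to 1 with a library left out. The labels name no pairing of replicates. Deviations from the group means had correlations of 0.049, 0.103 and -0.066 between same-numbered libraries, where all pairings ran from -0.112 to 0.107. With 3 libraries per group these values cannot decide whether same-numbered libraries were paired. With the replicate block 28 genes were called in all and 0 of the 35 were called lower. Of 455 values of single genes, 433 kept direction and side of the threshold, 13 lost a call, 3 gained one and 6 changed sign. The sign changes came with a library left out, where the log2 fold changes ran from -0.00587 to 0.161 for Crat, -0.0249 to 0.368 for Acads, -0.0161 to 0.142 for Acad9, -0.240 to 0.0539 for Acox3 and -0.0358 to 0.229 for Acsl4. Fewer libraries enter each fit that leaves one out, and for the others the cause was not tested. Control replicate 2, with 3038782 counts, limits the precision of rare transcripts.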
